A study of Homo sapiens with 8 samples.

Results

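Ribosome biogenesis is described here through 60 genes of the 60606 in the deposited table. They were chosen by symbol for their known roles in making ribosomes: RNA polymerase I factors, core proteins of small nucleolar ribonucleoproteins (snoRNPs), parts of the small subunit processome and assembly factors of both subunits. The cells were HEK293, an established human embryonic kidney line obtained from ATCC. For 4 libraries they had been given a synthetic copy of a tRNA-derived RNA (tDR), the 3' tDR from tRNA-Asp-GTC, and for 4 control libraries a scrambled mimic. Both mimics were used at 50 nM with Lipofectamine RNAiMax, and cells were taken after 48 h. Total RNA was extracted with TRIzol, and all libraries were prepared with a SMARTer stranded kit for total RNA (v2, Pico Input). The labels name no further allele, treatment or batch. Whether each library stands for its own culture is not stated, so the p-values rest on the spread among these 8 libraries, and that spread may be technical.

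Ribosomes are assembled mostly in the nucleolus, where RNA polymerase I copies the ribosomal DNA into a long precursor. Box C/D snoRNPs direct 2'-O-methylation of that RNA and box H/ACA snoRNPs direct its pseudouridylation, while the small subunit processome folds and cuts its 18S part. Separate sets of factors then mature the pre-40S and pre-60S particles and take them to the cytoplasm. Fast-growing cells such as HEK293 keep these genes active, and many of them are known targets of the transcription factor MYC, which binds the E-box CACGTG.

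Ribosome biogenesis genes were lower in the tDR libraries at nearly every step. Of the 53 members that could be tested, 36 fell, 0 rose and 17 did not pass the test (quasi-likelihood F test of edgeR, p adjusted by Benjamini-Hochberg over 17184 genes, threshold 0.05). That is 67.9% of the tested members called lower. Among all genes tested 11.4% were called lower and 12.8% higher. The fold change, tDR over control, was negative in 52 of the 53, and its median was -0.24 on the log2 scale, a change of -15.2%. Over all genes tested the median was 0.02. The members' values ran from -0.43 in NPM1 and UTP18 to 0.01 in BOP1, so each change was below 1 log2 unit. At an unadjusted p under 0.05, 39 of the 53 were lower and 0 higher, where 16.7% of all genes tested were lower and 19.2% higher. DESeq2's Wald test called 35 members lower and 0 higher, and 11.3% of all genes lower. These were bulk samples, so fewer cells that express a gene and less RNA per cell cannot be told apart.

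The libraries held between 5848305 and 10557740 counts. The members took 1.41 to 1.47% of all counts in the control libraries and 1.20 to 1.28% in the tDR libraries. In every tDR library this share was below that of every control library. Levels are given below as CPM, the counts of a gene scaled to 1 common library total, with library sizes adjusted by TMM, edgeR's trimmed mean method. NCL and NPM1 made up 22.7 and 21.1% of the members' summed CPM in the controls. With both of these left out, the sum was 8202 to 8453 CPM in the controls and 6898 to 7402 CPM with the tDR, and the groups again did not overlap. Of 5 genes chosen as markers of the line (PAX2, NEFL, NEFM, INA and LIN28B) all had counts. Their summed level was 524 to 557 CPM in controls and 418 to 471 CPM with the tDR, where NEFL, NEFM and LIN28B fell and PAX2 rose. Counts in olfactory receptor genes, taken as a measure of background reads, were denser with the tDR, at 23.1 to 26.2 CPM per Mb of gene (unscaled library sizes) against 13.7 to 17.8 in controls. The 6 genes of other cell types (PTPRC, CD3E, ALB, PECAM1, DCN and HBB) summed to 3.72 to 5.99 CPM in controls and 8.47 to 10.4 CPM with the tDR. Of these PECAM1 rose, from a mean of 1.38 to 4.27 CPM (edgeR adjusted p = 0.000168). PTPRC did not pass, and CD3E, ALB, DCN and HBB had too few counts to be tested. The part of background reads and of these 6 genes in the members' differences was not tested. At the olfactory density, background would supply at most 3.64% of any tested member's counts in the controls and 7.03% with the tDR, both in PWP2.

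**Figure D1:**
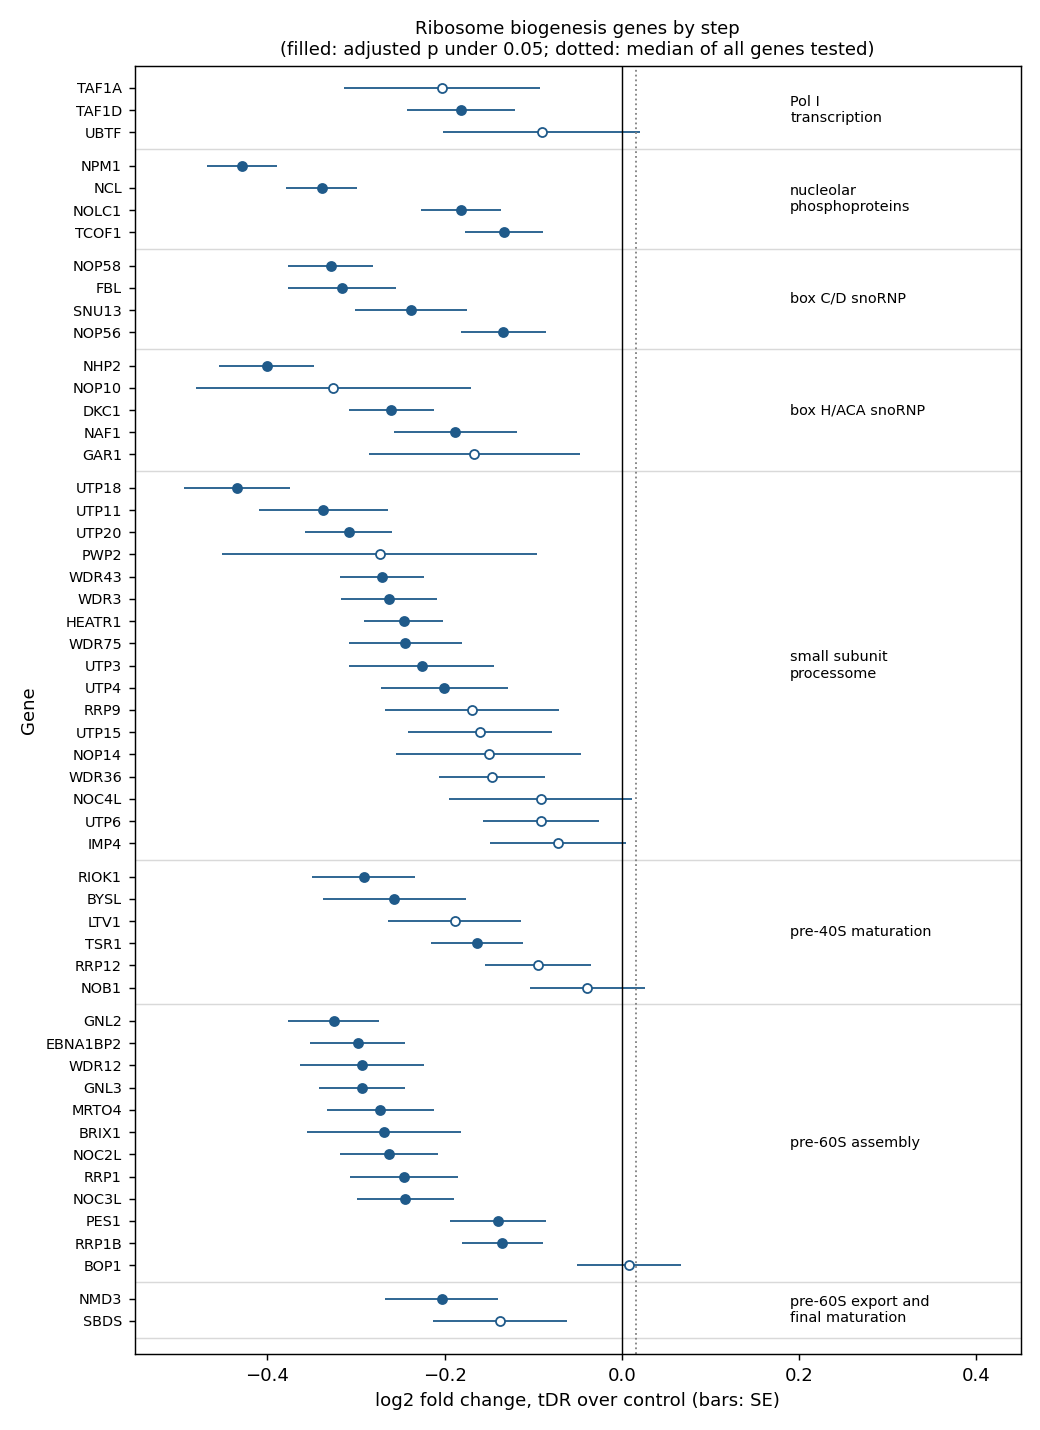
Log2 fold change of each of the 53 tested members, tDR over control, ordered by step, with bars of 1 SE and filled points for the 36 members called lower. All points but BOP1 lie below 0, and the farthest from 0 are UTP18 and NPM1 at -0.43.

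Fold changes followed the level of a gene over the whole table, so the members were also read beside genes of like level. Of the 10587 genes tested within the members' range of mean level, 18.1% were called lower and 9.52% higher. Of the 3212 between the lower and upper quartiles of the members' mean level, 27.8% were called lower and 5.29% higher. In the 1 log2 unit of CPM between 7 and 8, all 10 members fell, where 35.3% of all genes in that bin were lower. The median log2 fold change there was -0.30 for the members and -0.09 for all genes. Between 6 and 7, 12 of 19 members fell, against 22.5% of all genes. Between 8 and 9, 8 of 8 members fell, against 52.5% of all genes, with medians of -0.21 and -0.13. In the bin of 9 and above the 3 members fell, against 72.1% of all genes. Of the 13 members below 6, BRIX1, BYSL and UTP3 fell. They were among the 7 members between 5 and 6, where 13.8% of all genes were lower. None of the 4 members between 4 and 5 and the 2 between 3 and 4 fell, against 6.86% and 3.05% of all genes. In all, 50 of 53 members had a fold change below the median of their own bin, and 20 lay below its 10th percentile.

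**Figure D2:**
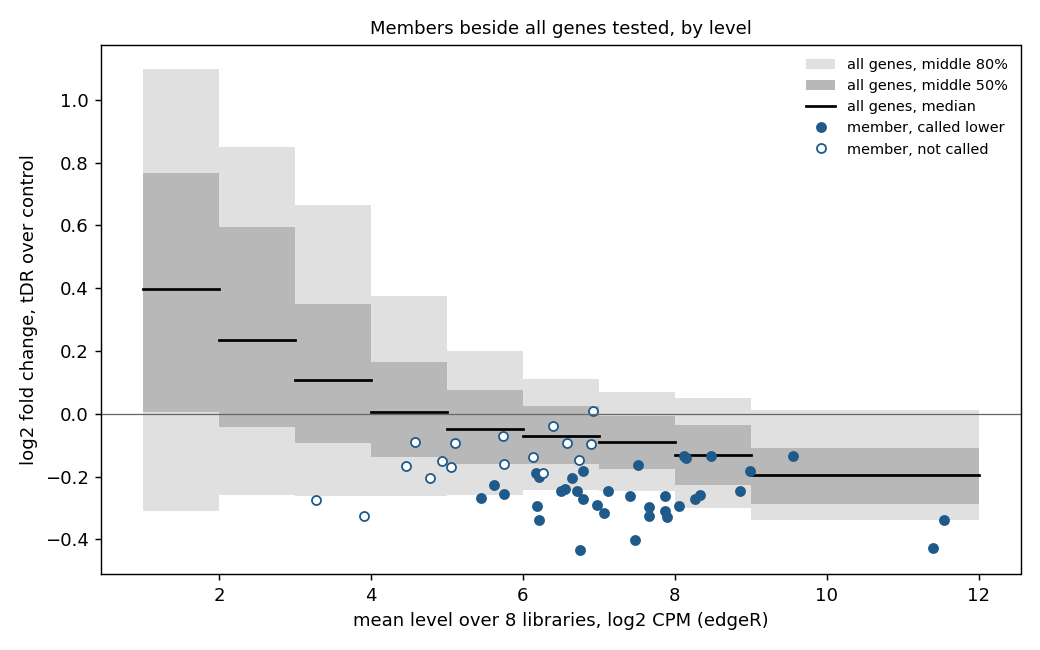
Log2 fold change (tDR over control) against mean level in log2 CPM for the 53 tested members, over boxes that show the median, middle 50% and middle 80% of all 17184 genes tested in each level bin. The median of all genes goes from 0.40 in the lowest bin to -0.20 in the highest, and 50 members lie below the median of their bin.

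The promoters of many members carry the E-box, and the sequences are shown because the motif sits at nearly the same place in several of them. RefSeq promoter windows on GRCh38.p14, 250 bases before to 50 bases after the start of a transcript, were matched for 51 of the 60 members. The motif CACGTG, which reads the same on both strands, was found in 21 of them (41.2%), and in 8.77% of the 27305 genes with a window. It was in 11.9% of the 11750 genes tested that had a window. Of 61 ribosome biogenesis genes outside the 60, from the list given further below, 19 held it (31.1%). Of 25 matches in the members' windows 16 began after the start (64.0%), against 11.1% of the 2821 matches in all windows. In 8 members a match began within 10 bases of the start. These 8 windows follow, 5′ to 3′ on the strand of the gene, with the E-box in capitals.
GNL2 at chr1:37595917-37595946, minus strand: gtacgtcgtgcaCACGTGgtccggcgtggt
WDR43 at chr2:28894658-28894687, plus strand: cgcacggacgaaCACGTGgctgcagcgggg
RRP9 at chr3:51941892-51941921, minus strand: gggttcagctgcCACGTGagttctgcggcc
GNL3 at chr3:52686026-52686055, plus strand: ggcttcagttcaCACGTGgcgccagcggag
UTP20 at chr12:101280083-101280112, plus strand: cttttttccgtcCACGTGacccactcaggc
UTP18 at chr17:51260538-51260567, plus strand: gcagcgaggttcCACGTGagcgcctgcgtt
FBL at chr19:39846356-39846385, minus strand: tgcgctcttttcCACGTGcgaaagccccgg
PWP2 at chr21:44107388-44107417, plus strand: tgagctgcggcaCACGTGcgacggccgtga

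Of these 8 genes GNL2, WDR43, GNL3, UTP20, UTP18 and FBL fell, and RRP9 and PWP2 did not pass. Among the members tested, 12 of the 19 with the motif were called lower, with a median log2 fold change of -0.27. Of the 26 without it 18 were called lower, with a median of -0.24. Over all genes tested with a window, 16.7% of those with the motif and 13.2% of those without it were called lower. A match describes the letters of the window and does not show that a factor binds there.

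The first step is transcription by RNA polymerase I. TAF1D, a subunit of the promoter selectivity factor SL1, had 129.6, 107, 114 and 119.9 CPM in control replicates 1 to 4. With the tDR it had 97.5, 105, 109 and 103 CPM. The groups overlapped, since tDR replicate 3 lay above control replicate 2. TAF1D fell by 0.18 on the log2 scale (SE 0.061, edgeR adjusted p = 0.0236). That call ended without control replicate 1 (adjusted p = 0.0917), without tDR replicate 1 (0.0624) and without tDR replicate 4 (0.0652). With a correction for exon length and GC content its log2 fold change was -0.10 (adjusted p = 0.194), and with estimated background subtracted it was -0.13 (0.160), neither of them called. TAF1A, another SL1 subunit, had 33.0, 30.0, 29.1 and 24.1 CPM in the controls and 24.2, 29.3, 21.0 and 26.0 CPM with the tDR, and did not pass (log2 fold change -0.20, adjusted p = 0.180). UBTF, which opens the ribosomal DNA for SL1, did not pass either, at -0.09. RRN3, which joins the polymerase to SL1, was listed at 0 in all 8 libraries.

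The abundant nucleolar phosphoproteins held the largest amounts of RNA, and all 4 fell. Of all genes tested at 8 to 9 log2 CPM 52.5% were called lower, and at 9 and above 72.1%. NPM1, a histone and ribosomal protein chaperone of the outer nucleolus, lies on GRCh38 chromosome 5 from 171387116 to 171411137. Its level was 3139, 3158, 3037 and 3065 CPM in the controls and 2463, 2319.5, 2232 and 2198 CPM with the tDR. Every tDR library lay below every control library. The log2 fold change was -0.43 (SE 0.040, edgeR adjusted p = 1.58e-12). NCL encodes nucleolin, which binds the nascent precursor, and lies on chromosome 2 from 231453531 to 231483641. It had 3100.2, 3525, 3382 and 3339 CPM in the controls and 2776, 2602, 2648 and 2526 CPM with the tDR. Here too the groups did not overlap, although control replicate 1 was lower than the other controls. NCL fell by 0.34 (SE 0.041, adjusted p = 3.89e-09). NOLC1, a carrier of snoRNPs, and TCOF1, the treacle protein that supports polymerase I, fell less, by 0.18 and 0.13. The fold change of TCOF1 lay above the median of -0.20 of all genes tested at 9 log2 CPM and above. The TCOF1 call ended without tDR replicate 3 (adjusted p = 0.0657) and without tDR replicate 4 (0.0870), and with background subtracted its log2 fold change was -0.08 (0.2498). Per kb of exon, NPM1 was the highest of the members in the controls at 809.8 CPM per kb, followed by NCL at 482, NOLC1 at 136 and NHP2 at 134. UBTF and PWP2 were the lowest of those tested at 3.46 and 1.49 CPM per kb.

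**Figure D3:**
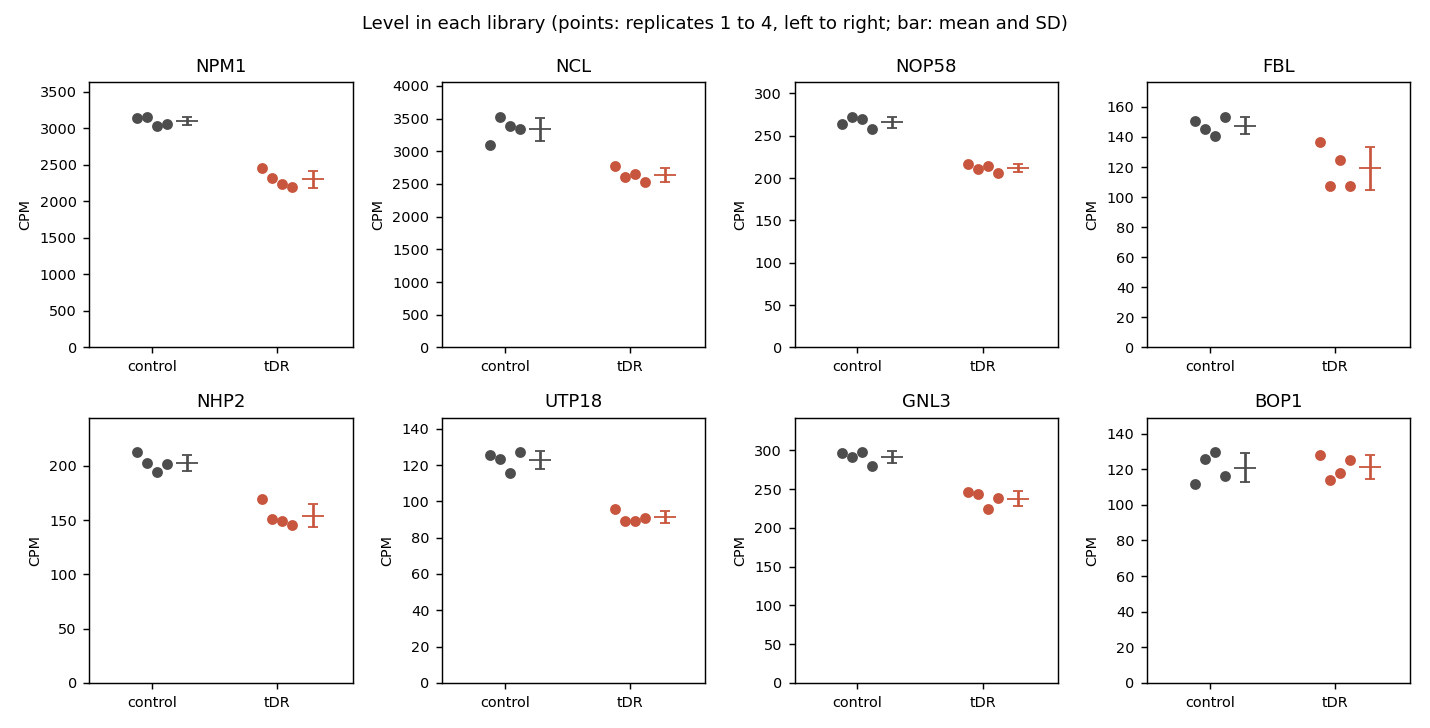
CPM in each of the 4 control and 4 tDR libraries for members named in the text, one panel per gene with its own axis. The groups are apart in NPM1, where the highest tDR library has 2463 CPM and the lowest control 3037 CPM, and mixed in BOP1, where both group means are 121 CPM.

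Box C/D snoRNPs carry 4 core proteins, and the genes of all 4 fell, each with every tDR library below every control library. Of all genes tested, 22.5% were called lower at 6 to 7 log2 CPM, 35.3% at 7 to 8 and 52.5% at 8 to 9. Between the lower and upper quartiles of the members' mean level, 816 of 3212 genes had every tDR library below every control library. NOP58, a scaffold of the particle (chromosome 2, 202265716 to 202303666), had 264, 272, 269.7 and 258 CPM in the controls. With the tDR it had 216, 210.4, 214 and 206 CPM, a gap wider than the spread inside either group. It fell by 0.33 (SE 0.048, edgeR adjusted p = 5.8e-07). FBL encodes fibrillarin, the methyltransferase of the particle (chromosome 19, 39834458 to 39846414). Its level was 151, 145, 141 and 153 CPM in the controls and 137, 108, 125 and 108 CPM with the tDR. The tDR libraries were the more scattered of the groups, with an SD of 14.2 CPM against 5.66 CPM, and FBL fell by 0.32 (SE 0.061, adjusted p = 8.81e-05). NOP56, the partner of NOP58 (chromosome 20, 2652145 to 2658393), had 299.8, 290.1, 292 and 282 CPM in the controls and 277, 279.8, 250.0 and 255 CPM with the tDR. Its fall of 0.13 was smaller (SE 0.048, edgeR adjusted p = 0.0360), and all genes tested at 8 to 9 log2 CPM had a median of -0.13. The NOP56 call ended without tDR replicate 3 (0.142), without tDR replicate 4 (0.130) and with background subtracted (-0.08, adjusted p = 0.299). SNU13, which binds the kink-turn of the snoRNA, fell by 0.24. Without tDR replicate 4 its adjusted p was 0.0513.

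In the box H/ACA particle DKC1, NHP2 and NAF1 fell, while NOP10 and GAR1 did not pass. NHP2, an RNA-binding core protein (chromosome 5, 178149460 to 178153967), had 213, 203, 194 and 201 CPM in the controls. With the tDR it had 169.6, 151, 149.6 and 146 CPM, all below the lowest control. It fell by 0.40 (SE 0.054, edgeR adjusted p = 7.09e-08). DKC1 encodes dyskerin, the pseudouridine synthase (chromosome X, 154762742 to 154777689), with 342, 368, 352 and 345 CPM in the controls and 318, 290.5, 296 and 273 CPM with the tDR. These groups did not overlap, and DKC1 fell by 0.26 (SE 0.048, adjusted p = 4.54e-05). NAF1, which helps assemble the particle and then leaves it, fell by 0.19 with an adjusted p of 0.0403, and the call ended without control replicate 2 or 4 or tDR replicate 2, 3 or 4, with adjusted p from 0.0557 to 0.136. It also ended with the length and GC correction (0.0994) and with background subtracted (0.166). NOP10 and GAR1, the small core proteins, were the least abundant of this group, at 16.1 ± 4.80 and 22.8 ± 2.96 CPM in the controls (SD, n = 4). Their log2 fold changes were -0.33 and -0.17 with SEs of 0.16 and 0.12.

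Of the 17 tested members of the small subunit processome 9 fell and 8 did not pass, with a median log2 fold change of -0.23. Their median level was 6.22 log2 CPM, and of all genes tested at 6 to 7 log2 CPM 22.5% were called lower. UTP18, a WD-repeat protein of its UTPB complex (chromosome 17, 51260528 to 51297936), had 125, 123, 115 and 127 CPM in the controls and 96.0, 89.2, 88.9 and 90.6 CPM with the tDR. The tDR values lay close together, and all were below the controls. At -0.43 (SE 0.059, edgeR adjusted p = 1.28e-07) it had the lowest fold change of the members. UTP20, a very large scaffold protein (chromosome 12, 101280109 to 101386616), had 254, 257, 267 and 255 CPM in the controls and 198, 221, 210.3 and 204 CPM with the tDR. UTP20 fell by 0.31 (SE 0.049, adjusted p = 3.19e-06), with no overlap between groups. HEATR1, a helical-repeat protein of the UTPA complex (chromosome 1, 236549005 to 236604504), was the most abundant of the step. Its level was 519.6, 503, 494 and 493 CPM in the controls and 442, 411, 418 and 423 CPM with the tDR, again apart. HEATR1 fell by 0.25 (SE 0.045, adjusted p = 3.06e-05).

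The other called processome genes were UTP11 (-0.34), WDR43 (-0.27), WDR3 (-0.26), WDR75 (-0.24), UTP3 (-0.23) and UTP4 (-0.20). WDR43 and WDR75 belong to the UTPA complex, which binds the precursor early, and UTP4 does as well. The UTP3 call ended without control replicate 2 or 4 or tDR replicate 2, 3 or 4, with adjusted p from 0.0615 to 0.128, and with background subtracted (0.164). WDR75 had a log2 fold change of -0.15 with the length and GC correction and was then not called (edgeR adjusted p = 0.0564). For UTP4 the call ended without control replicate 3 (adjusted p = 0.159), the library in which it was highest, and without tDR replicate 2 (0.0907), 3 (0.0854) or 4 (0.0724), and with background subtracted (0.131). UTP6, UTP15, WDR36, PWP2, RRP9, IMP4, NOP14 and NOC4L did not pass, with log2 fold changes between -0.27 and -0.07. Their median level in the controls was 44.9 CPM, against 123 CPM for the 9 that fell. UTP14A was listed at 0 in all libraries.

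Pre-40S maturation was split, with 3 of 6 tested members called lower. The median level of these 6 was 6.65 log2 CPM, and of all genes tested at 6 to 7 log2 CPM 22.5% were called lower. RIOK1, an atypical kinase that acts late in the cytoplasm (chromosome 6, 7389496 to 7418037), had 139.7, 145, 131 and 137 CPM in the controls and 122, 107, 116 and 107 CPM with the tDR. Its groups did not overlap, and it fell by 0.29 (SE 0.058, edgeR adjusted p = 0.000127). TSR1, a GTPase-like factor on the late particle (chromosome 17, 2322503 to 2337507), had 203, 194, 189 and 182 CPM in the controls and 179, 168, 164 and 176 CPM with the tDR. The highest tDR library lay just under the lowest control, and TSR1 fell by 0.16 (SE 0.052, adjusted p = 0.0164). Without tDR replicate 3 its adjusted p was 0.0671, and with background subtracted it was 0.164 at a log2 fold change of -0.11. BYSL, the bystin protein of the early particle, had 53.4, 58.3, 60.9 and 60.2 CPM in the controls and 53.3, 53.5, 43.8 and 44.9 CPM with the tDR. Those groups touched at about 53 CPM (53.4 against 53.5). BYSL fell by 0.26 (SE 0.081, adjusted p = 0.0151), a call that ended without tDR replicate 3 (0.0760) or 4 (0.0833) and with background subtracted (0.0946). NOB1, the nuclease that makes the final cut of 18S rRNA, did not pass at -0.04, and RRP12 and LTV1, which accompany the particle out of the nucleus, did not pass at -0.09 and -0.19. RIOK2 was listed at 0.

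The pre-60S assembly factors had the highest share of calls among the larger steps, 11 of 12 tested members. Their median level was also higher, at 7.39 log2 CPM against 6.22 for the tested processome members. Of all genes tested at 7 to 8 log2 CPM 35.3% were called lower, and at 6 to 7 log2 CPM 22.5%. The part of level in this ranking was not tested. GNL2, a GTPase of the nucleolar particle (chromosome 1, 37566816 to 37595935), had 231, 232, 218 and 216 CPM in the controls and 169, 192, 178 and 176 CPM with the tDR. It fell by 0.33 (SE 0.051, edgeR adjusted p = 2.58e-06), with every tDR library below the controls. GNL3 encodes nucleostemin, a related GTPase known from stem and tumour cells (chromosome 3, 52681156 to 52694492). Its level was 297, 291, 297 and 280.0 CPM in the controls and 246, 243, 224 and 238 CPM with the tDR. The groups were apart by more than their own spread, and GNL3 fell by 0.29 (SE 0.048, adjusted p = 5.25e-06). RRP1B, the most abundant of the step, had 364, 386, 362 and 380.2 CPM in the controls and 347, 345, 332 and 336 CPM with the tDR. Although its groups did not overlap, the fall was 0.14 (SE 0.046, edgeR adjusted p = 0.0238). All genes tested at 8 to 9 log2 CPM had a median of -0.13. The RRP1B call ended without tDR replicate 3 (0.0702) or 4 (0.0658) and with background subtracted (-0.08, adjusted p = 0.230).

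EBNA1BP2 (-0.30), WDR12 (-0.29), MRTO4 (-0.27), BRIX1 (-0.27), NOC2L (-0.26), RRP1 (-0.25), NOC3L (-0.24) and PES1 (-0.14) also fell. MRTO4 holds the place of the stalk protein on the immature particle, and NOC2L and NOC3L work as partners in its transport. The BRIX1 call ended without tDR replicate 2 (edgeR adjusted p = 0.0513) or 4 (0.115), with the length and GC correction (0.111) and with background subtracted (0.0964). NOP2, NOP16, RRS1 and NIP7 were listed at 0.

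PES1, BOP1 and WDR12 form 1 complex, PeBoW, and were set side by side after their values were seen. WDR12 had 85.9, 70.7, 83.3 and 79.3 CPM in the controls and 64.2, 63.1, 66.6 and 66.2 CPM with the tDR, with no overlap (SE 0.070, edgeR adjusted p = 0.00124). PES1 had 256, 321, 318 and 296 CPM in the controls and 295, 269.8, 257 and 259.9 CPM with the tDR. These groups overlapped, because control replicate 1 had the lowest value of all 8 libraries. Its adjusted p was 0.0495, and the call ended under 12 of 17 alternatives, among them leaving out control replicate 2, 3 or 4 or tDR replicate 2, 3 or 4, with adjusted p from 0.0509 to 0.161. With the length and GC correction it was 0.0553, and with background subtracted 0.370 at a log2 fold change of -0.09. BOP1 had 112, 126, 129.5 and 116 CPM in the controls and 128, 114, 118 and 125 CPM with the tDR, fully mixed. Its log2 fold change was 0.01 (SE 0.059, adjusted p = 0.939). The log2 ratio of BOP1 to WDR12 was 0.38, 0.83, 0.64 and 0.55 in the controls and 0.99, 0.85, 0.82 and 0.92 with the tDR. Control replicate 2 lay just above tDR replicate 3 (0.828 against 0.824). The mean log2 ratio of BOP1 to PES1 was -1.30 in the controls and -1.16 with the tDR. That of PES1 to WDR12 was 1.90 and 2.05. In both of these pairs the groups overlapped. The difference between these genes was not tested.

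Of the export and final maturation factors NMD3 fell and SBDS did not pass. NMD3, the adaptor that carries the pre-60S particle to the exportin CRM1, had 115, 101, 107 and 103 CPM in the controls and 92.1, 104, 88.5 and 85.7 CPM with the tDR. Only tDR replicate 2 reached into the range of the controls. NMD3 fell by 0.20 (SE 0.064, edgeR adjusted p = 0.0147), and without tDR replicate 3 or 4 the adjusted p was 0.0535 or 0.0929. With the length and GC correction its log2 fold change was -0.12 (0.133), and with background subtracted it was -0.17 (0.0819), neither of them called. SBDS, which helps remove the last anti-association factor from the new subunit, had 83.0, 76.3, 68.7 and 64.8 CPM in the controls. With the tDR it had 67.6, 67.0, 73.5 and 59.0 CPM, overlapping the controls (log2 fold change -0.14, adjusted p = 0.183).

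Summed over each step, the level with the tDR was between 10.9 and 21.0% below the controls. The nucleolar phosphoproteins went from 7764 ± 228 to 6136 ± 256 CPM (SD, n = 4). Pre-60S assembly factors went from 2296 ± 78.7 to 1969 ± 53.3 CPM and the small subunit processome from 2149 ± 31.8 to 1815 ± 48.7 CPM. In these and in 4 further steps every tDR library lay below every control library. The sum of the 2 export factors was the exception, with 198, 177, 175 and 168 CPM in the controls and 159.7, 171, 162 and 145 CPM with the tDR, where tDR replicate 2 lay above control replicate 4.

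**Figure D4:**
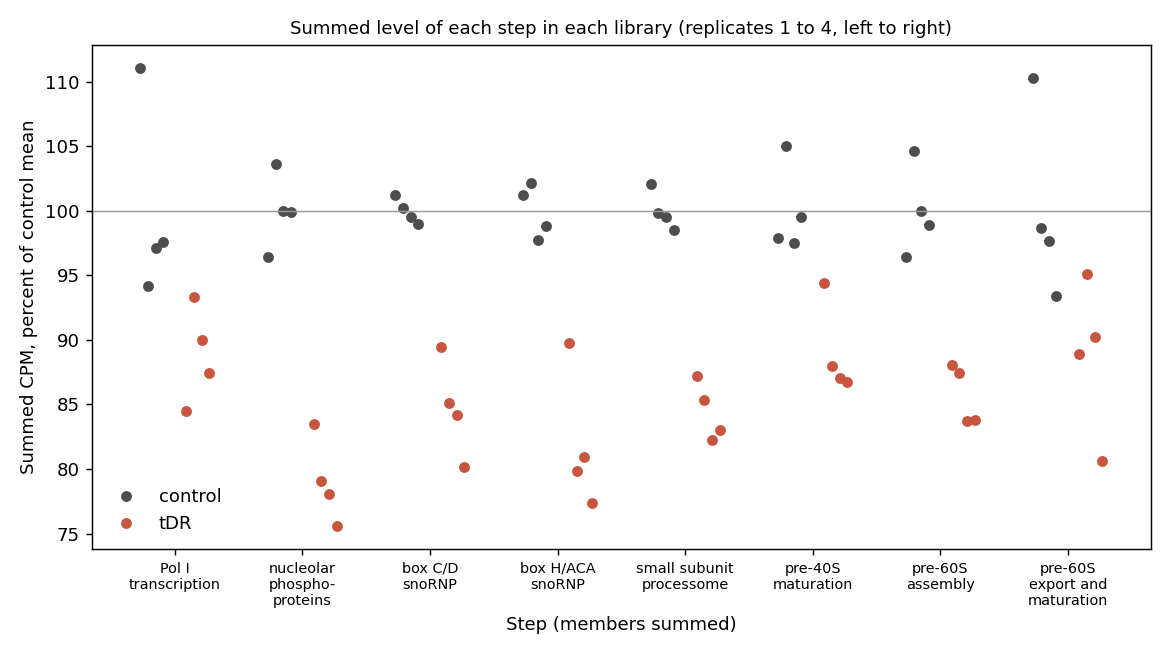
Summed CPM of the members of each step in each library, as a percent of the control mean of that step, with control and tDR replicates 1 to 4 from left to right. The tDR points lie below the controls in 7 of 8 steps, and tDR replicate 1 is the highest tDR point in 6 of those.

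Among the tDR libraries, replicate 1 had the highest level of 33 of the 53 members and replicate 4 the lowest of 22. The members' median log2 deviation from the group mean was 0.07 in tDR replicate 1 and -0.05 in tDR replicate 4. In the controls it ran from -0.01 to 0.03. Member by member, 27 of 53 had every tDR library below every control library, and all 27 were among the called genes. Over all genes tested 10.8% had this pattern, but it was more common among genes of like level. It was seen in 1791 of the 10587 genes tested within the members' range of mean level. Between the lower and upper quartiles of the members' mean level it was seen in 816 of 3212 genes. The 36 called members had a median control level of 188 CPM, and the 17 that did not pass had 54.7 CPM.

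Members share bases with other genes in places, and the sources used here do not say whether reads were assigned by strand. In GENCODE 29, 32 tested members share exon bases with another annotated gene, and 20 of these were called lower, with a median log2 fold change of -0.20. Of the 21 that share none 16 were called lower, with a median of -0.25. In all, 8 members host 33 snoRNA genes on their own strand, TAF1D, GNL3 and NOP56 with 5 or more each. Of those snoRNAs 32 were listed at 0 in all libraries, and SNORA75, in an intron of NCL, had 1 count in all. How reads from such small nested genes were counted is not given, so no level is drawn from these zeros. The same holds for the 7 members listed at 0 (RRN3, UTP14A, RIOK2, NOP2, NOP16, RRS1 and NIP7), which serve every growing cell.

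Further ribosome biogenesis genes outside the 60 were read from a list of 69. Of the 62 tested 33 fell (53.2%), 1 rose and 28 did not pass, with a median log2 fold change of -0.18. Among all genes tested 11.4% were called lower and 12.8% higher. The median level of the 62 was 6.74 log2 CPM. Of the 3212 genes between the lower and upper quartiles of the members' mean level, 27.8% were called lower and 5.29% higher, with a median of -0.08. RUVBL1, a helicase subunit of the R2TP complex that assembles snoRNPs, fell by 0.40 (edgeR adjusted p = 1.24e-08), from 255 ± 5.45 to 193 ± 9.72 CPM (SD, n = 4). NOL11, a processome protein, fell by 0.37 (adjusted p = 7.97e-07), and NSA2, a pre-60S factor, fell by 0.31 (adjusted p = 7.51e-06). In all 3 genes every tDR library lay below every control library. The gene that rose was SENP3, a SUMO protease of the nucleolus, from 27.4 ± 4.28 to 35.6 ± 1.36 CPM (log2 fold change 0.38, adjusted p = 0.00473).

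Under the other ways of processing, 21 of the 36 called members kept their call in each of 17 alternatives. They were NCL, NPM1, FBL, NOP58, DKC1, NHP2, UTP11, UTP18, UTP20, HEATR1, WDR3, WDR43, RIOK1, NOC2L, NOC3L, WDR12, RRP1, EBNA1BP2, GNL2, GNL3 and MRTO4. Scaling by library size alone moved the median of all genes to 0.10, and 21 members fell with a median of -0.16, against 907 of all genes tested (5.28%). The calls of the other 15 members all ended under that scaling. With estimated background subtracted 24 members fell, against 1097 of 15108 genes tested (7.26%), and 12 of the 36 calls ended. With the length and GC correction 32 members fell, against 11.2% of all genes, and 6 of the 36 calls ended. No member was called higher under any of them.

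**Figure D5:**
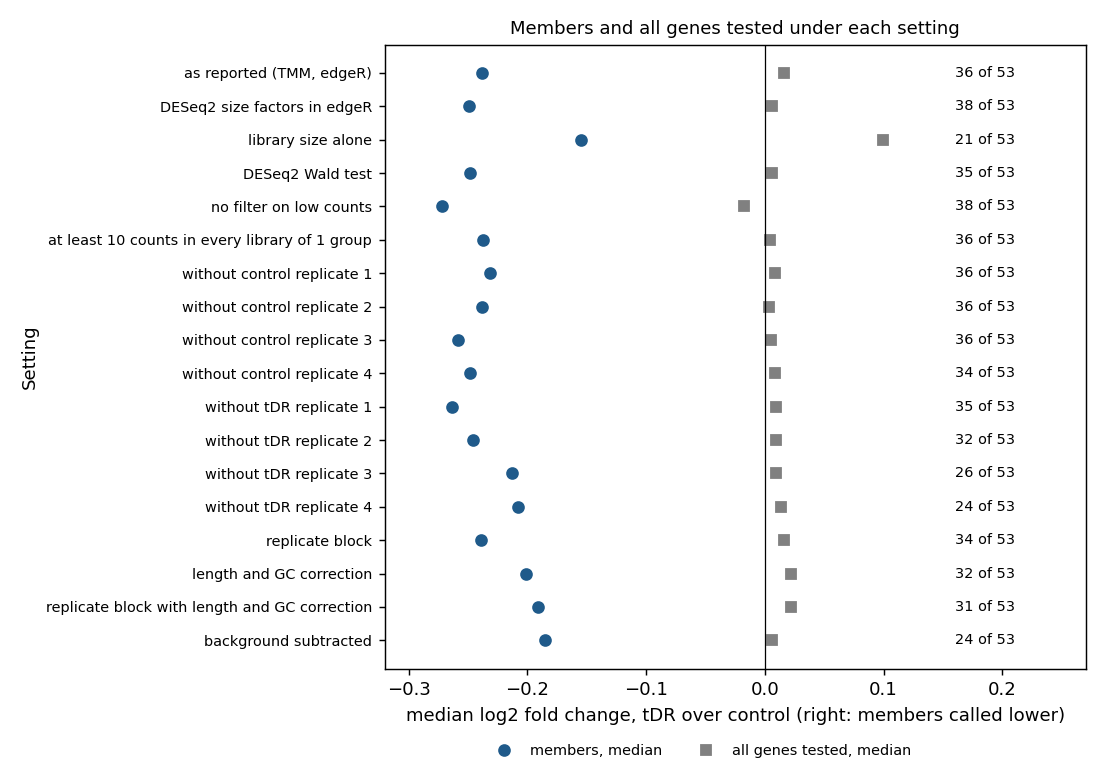
Median log2 fold change of the members (circles) and of all genes tested (squares) under the reported fit and each alternative. The squares cover only genes that were also tested in the reported fit. The number of the 53 members called lower is at the right. The members' median lies between -0.27 and -0.16, below the square in each, and the count of called members runs from 21 to 38.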

How the data were processed

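The authors deposited 1 table of read counts per gene, raw and with 1 column per library. The submitters' processing notes name STAR 2.7.8a, featureCounts 2.0.2, cutadapt 2.10, DESeq2 1.30.1 and FastQC 0.11.9, with the build GRCh38.p13. Not given in the sources used here are the annotation release, the strand setting, the treatment of multiply mapped reads and any use of molecular identifiers.

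All 8 libraries were fitted with group as the only term in edgeR 4.0.16 (R 4.3.3): edgeR's own filter on low counts, TMM scaling and the quasi-likelihood F test, Benjamini-Hochberg adjusted over 17184 genes. SEs were taken from the fold change and its F statistic. On simulated counts the steps recovered 55.3% of genes changed 1.3-fold and 61.2% of those changed 1.5-fold. The simulation changed fewer genes than were called here and took each gene's spread from a trend over level. Its rates therefore need not hold for these data. All pairs of libraries differed beyond counting noise. Of the 60606 genes, 25964 had 0 counts throughout and 94.1% matched GENCODE 29, which gave positions and exon lengths. Promoters came from RefSeq. Alternatives were DESeq2 1.42.0 (size factors and Wald test), library size alone, other count filters, each library left out, a replicate block, correction for exon length and GC content, and subtraction of background estimated from 388 olfactory receptor genes.

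Members and lists were chosen with earlier results of these data known. In each step the 2 members with the smallest p and the most abundant one are given by library, other called members by fold change and the rest by range and count. Of the other pathway genes up to 3 with the smallest p in each direction are named. PES1, BOP1 and WDR12 are shown by library outside this rule.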

Additional observations from a re-analysis of the deposited data

Results flagged for a closer look

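In 122 sets of 4 libraries (each tested member and each step sum, per group) the highest or lowest library was compared with the others by Dixon's ratio, and 4 stood apart, where about 6.1 would by chance at 1 in 20. UTP4 had 91.7 CPM in control replicate 3, against 74.7 to 75.6 CPM in the other controls. Without that library its log2 fold change was -0.15 and no longer called (edgeR adjusted p = 0.159). PWP2 had 11.9 CPM in tDR replicate 1, against 7.26 to 7.76 CPM in the other tDR libraries. Without that library its log2 fold change was -0.45 in place of -0.27, and neither passed (adjusted p = 0.0694 and 0.271). RRP1 had 106 CPM in control replicate 3, against 115 to 116 CPM, and stayed called lower without it, at -0.29. The sum of the pre-40S factors was 639.8 CPM in tDR replicate 1, against 588 to 596 CPM in the other tDR libraries. What set these libraries apart was not tested.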

How the results depend on the processing

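Scaling by library size alone gave 21 members called lower in place of 36 and a median of -0.16 in place of -0.24. It gave 19 of the other pathway genes in place of 33. Of all genes tested 5.28% were then called lower, in place of 11.4%. With background subtracted the members' median was -0.19, and 21 other pathway genes were called lower, against 7.26% of all genes tested. That setting also filtered and scaled the subtracted counts anew, and these parts of it were not run apart. For TCOF1, whose call ended under it, estimated background was 0.085% of counts in the controls and 0.145% with the tDR. No direction of these results reversed. Leaving out each library in turn gave 24 to 36 members called lower, fewest without tDR replicate 4, against 8.76 to 12.1% of all genes, and medians of -0.26 to -0.21. The cause of these shifts was not tested. Deviations of libraries that share a number had correlations over genes of -0.01, 0.07, -0.03 and 0.02. With 4 libraries per group these values do not show whether the number pairs them. With the replicate block 34 members were called lower, against 10.7% of all genes, with a median of -0.24. NAF1 (edgeR adjusted p = 0.0533) and PES1 (0.0742) then lost their calls, and with the block and the length and GC correction the median was -0.19. All 17 members that did not pass had fitted changes under 1.3-fold, as had the called members other than NPM1, UTP18 and NHP2. At 1.3-fold the simulation recovered 55.3% of genes. It drew them from all genes tested and held no smaller change, so it gives no rate for these members. Control levels of the 17 that did not pass ran from 10.3 to 123 CPM. Whether depth or the size of the change kept them from passing was not tested.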
